A study of Mus musculus with 20 samples.

Results

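The mitochondrially encoded mRNAs described here are mt-Co1, mt-Co2, mt-Co3, mt-Cytb, mt-Nd1, mt-Nd2, mt-Nd4, mt-Nd5, mt-Nd6 and mt-Atp6, 10 rows chosen by symbol out of 55291 gene symbols in a table of RNA-seq counts, of which 37 are mitochondrial. Libraries came from the left hemi-brains of mice labelled female, at 18 months of age (MO), 1 mouse per library and 5 libraries in each of 4 groups. APOE2, APOE4 and APOE3 mice were homozygous for the named human APOE allele, which replaces mouse Apoe on a C57Bl/6 background and is driven by the murine promoter. The remaining group, APOE4D, carries APOE4 as its genotype label, and the sources used here do not say what the D stands for. All 4 groups share the gene replacement, so none carries the mouse allele, and no younger group and no group labelled male enters the comparisons. The comparisons ask how the levels of these mRNAs differ with APOE genotype at 1 age. APOE3 and APOE4 serve as references for more than 1 comparison, so comparisons that share a group are not independent of each other.

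The mitochondrial genome is a small circle that encodes core subunits of the respiratory chain and of ATP synthase, together with the rRNAs and tRNAs needed to translate them. Both strands are transcribed as long RNAs, from which the tRNAs are cut out, and this releases the rRNAs and mRNAs between them. All other subunits of these complexes are encoded in the nucleus and imported. In brain, where neurons rely heavily on oxidative phosphorylation, mitochondrial mRNAs are among the most abundant RNAs of the tissue. In bulk tissue, fewer mitochondria-rich cells and less mitochondrial RNA per cell cannot be told apart.

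Libraries held 32404258 to 51960932 counts. The APOE3 library replicate 1 stood apart from the rest, with 48 reads of Xist, which is made from the silenced X chromosome in females, against 12151 to 24959 in the other 19 libraries. This goes against its label as female, so the tests against APOE3 are given with and without it. Mouse Apoe was counted at 33.8 to 47.2 CPM (counts scaled to 1 total shared by all libraries) in the 20 libraries, which does not check the genotype labels. Markers of neurons, astrocytes, oligodendrocytes and microglia were detected in every group. The skeletal muscle markers summed to 9.36 to 12.2 CPM. Replicate numbers only name the libraries.

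Of the 10 mRNAs 3 could hardly be counted in these data, and the genome sequence was used to describe where. The reads were 50 bases long, and for each gene the share of its 50-base windows found nowhere else in the GRCm39 genome was computed. This share was 100% for mt-Nd1, mt-Nd6 and mt-Cytb, 92.4% for mt-Nd5, 91.7% for mt-Nd2, 48.9% for mt-Co1 and 37.8% for mt-Nd4. It was 0% for mt-Co2, mt-Co3 and mt-Atp6. The longest ungapped copy lies on chromosome 1, from 24651831 to 24655265 on the minus strand, and matches mitochondrial bases 6394 to 9828 over 3435 bases with 1 mismatch. Annotated pseudogenes in this copy or across its edge are Gm28661 (the copy of mt-Co2), Gm28437 (mt-Co3), Gm29216 (the end of mt-Co1) and Gm28438 (mt-Nd3), and next to it lie Gm10222 (mt-Nd4l) and then Gm28439 (mt-Nd4).

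The start of mt-Co2 and of its nuclear copy is shown because it is the case met by every read of mt-Co2, mt-Co3 and mt-Atp6. The first 50 bases, which make up a whole read, do not differ at any position, so no base is in capitals:
mt-Co2: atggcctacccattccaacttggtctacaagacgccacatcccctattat
Gm28661: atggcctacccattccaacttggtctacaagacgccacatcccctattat

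The border of the copy inside mt-Co1 is shown next, since none of the 430 windows of mt-Co1 that start past it is unique, whereas 731 of the 1066 that start before it are. Capitals mark the substitutions T6383A, C6384T, A6386G, A6387G, C6389A and A6393T, with the mitochondrial base first, positions counted along the mitochondrial genome and the copy's base last:
mt-Co1: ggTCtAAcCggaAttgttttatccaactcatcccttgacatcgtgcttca
Gm29216: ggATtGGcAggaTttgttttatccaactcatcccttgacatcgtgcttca

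A single substitution, T9461C, separates mt-Nd3, a complex I subunit gene outside the 10, from Gm28438, and it is shown because here the copy, and not the mitochondrial gene, took most of the reads. Capitals mark that base:
mt-Nd3: atTaacctgtacactgttatcttcatta
Gm28438: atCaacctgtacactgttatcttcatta

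The counts followed these shares. The mRNAs with no unique window had 3 to 31 reads per library for mt-Co2, 3 to 18 for mt-Co3 and 4 to 35 for mt-Atp6, against at least 142202 reads in every library for mt-Nd4, the least covered by unique sequence among the rest. mt-Nd3 had 0 to 4 reads per library and its copy Gm28438 had 1028 to 2033. The sources used here do not give how reads that match more than 1 place were counted, and the counts of mt-Co2, mt-Co3 and mt-Atp6 were not taken as levels of these mRNAs. The plot of unique sequence against counted level shows this gap.

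**Figure D1:**
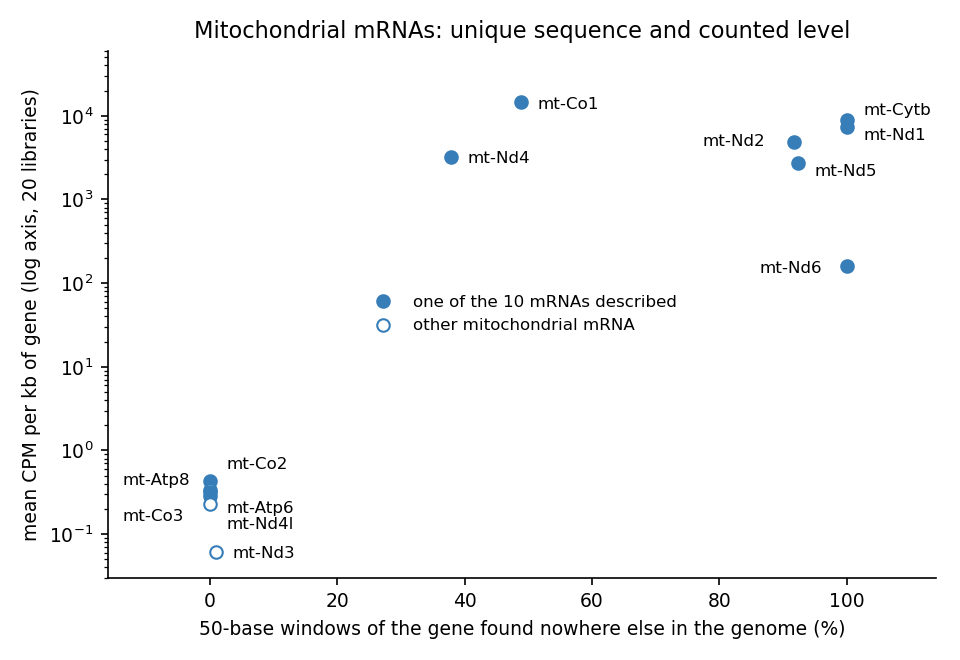
Each point is 1 mitochondrial mRNA, with the percent of its 50-base windows found nowhere else in GRCm39 on the x axis and its mean CPM per kb of gene over 20 libraries on a log y axis (filled points, the 10 mRNAs described; open points, the others). The genes at or near 0% lie below 0.5 CPM per kb, while mt-Co1 at 48.9% and mt-Nd4 at 37.8% lie in the range of the genes with nearly all windows unique.

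The other 7 members, taken as well counted, were among the most abundant rows of the table, except for mt-Nd6. By mean CPM over the 20 libraries, mt-Co1 ranked 1 of all genes at 22410 CPM, mt-Cytb ranked 2 at 10319 CPM and mt-Nd1 ranked 3 at 6974 CPM. mt-Nd2, mt-Nd5 and mt-Nd4 ranked 5, 6 and 7, and mt-Nd6 ranked 2849 at 82.4 CPM. Within the summed counts of the 10 members, mt-Co1 took 41.3%, mt-Cytb 19.1% and mt-Nd6 0.151% on average. Per kb of gene, the levels ran from mt-Co1 (14505 ± 1123 CPM per kb, SD over 20 libraries) through mt-Cytb (9021 ± 527), mt-Nd1 (7287 ± 649), mt-Nd2 (4908 ± 504), mt-Nd4 (3207 ± 197) and mt-Nd5 (2706 ± 236) to mt-Nd6 (159 ± 31.5). Of neighbours in this order, mt-Cytb and mt-Nd1, and likewise mt-Nd4 and mt-Nd5, overlapped in range across libraries, and the others did not. Dividing by the number of unique windows in place of the length moved mt-Nd4 up, to 8804 ± 542 CPM per 1000 unique windows, beside mt-Cytb at 9424 ± 551, and put mt-Co1 at 30657 ± 2373.

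Together the 10 members held 5.1% to 5.76% of all counts in APOE2 libraries, 5.45% to 6.01% in APOE4D libraries, 5.15% to 6.07% in APOE4 libraries and 4.78% to 6.05% in APOE3 libraries. The means were 5.38% ± 0.269 in APOE2, 5.67% ± 0.228 in APOE4D, 5.49% ± 0.352 in APOE4 and 5.16% ± 0.51 in APOE3 libraries (SD, n = 5 each). Almost all of these counts came from the 7 well-counted members, as mt-Co2, mt-Co3 and mt-Atp6 were hardly counted. The share is thus one of counted reads and not the level of all 10 mRNAs. All pairs of groups overlapped. The highest APOE3 value, 6.05%, belonged to replicate 1, which was the highest APOE3 library for 7 of the 7 well-counted members, while the other 4 APOE3 libraries lay between 4.78% and 5.07%, below all APOE2, APOE4D and APOE4 libraries. The mean of those 4 libraries was 4.93%. Total counts and the share, both on the log2 scale, had a Pearson r of -0.651 over the 20 libraries, as a description. No test was made of the summed share or of the part of depth in it.

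**Figure D2:**
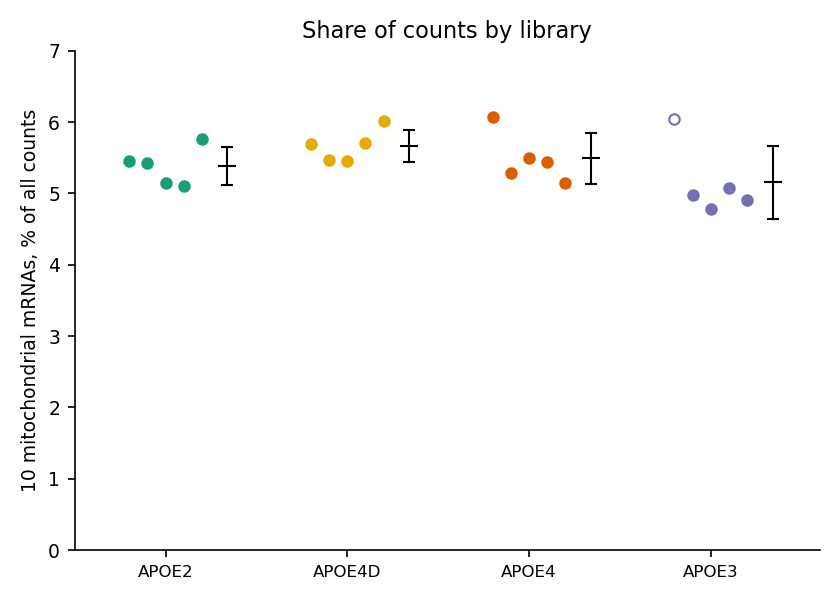
Points are single libraries, with the counts of the 10 mitochondrial mRNAs as a percent of all counts of the library on the y axis. mt-Co2, mt-Co3 and mt-Atp6 add almost nothing to these counts. Black marks show the mean and SD of each group of 5. The open point, APOE3 replicate 1 at 6.05%, lies among the high APOE4 and APOE4D libraries, while the other APOE3 libraries lie at 5.07% or less.

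Members were tested with edgeR's quasi-likelihood test across all genes, with Benjamini-Hochberg adjustment, and are called where the adjusted p was under 0.05. In APOE4 against APOE3 mice, mt-Nd6 and mt-Nd2 were higher and no member was lower, so that 2 of 10 members were called, against 21% of all genes tested. The share of called members is thus near that of all genes. Between APOE2 and APOE3 mice 0 of 10 members were called (0 at an unadjusted p under 0.05, and 0 with DESeq2 or limma-voom), against 4.89% of all genes. Against APOE4 mice, APOE2 mice were lower in mt-Nd6 alone, 1 of 10 members against 5.89% of all genes. APOE4D mice differed from APOE4 mice in 0 of 10 members (0 with DESeq2 or limma-voom) and 0% of all genes by edgeR. The genes called numbered 34 with DESeq2, and 211 of 20951 with edgeR on these 2 groups alone. In the joint edgeR fit 1 member and 2293 of 21041 genes had an unadjusted p under 0.05. APOE4D mice exceeded APOE3 mice in mt-Co1, 1 of 10 members against 8.41% of all genes. The median log2 fold change of the 7 well-counted members was 0.12 for APOE4 against APOE3, 0.07 for APOE2 against APOE3, -0.03 for APOE2 against APOE4, 0.02 for APOE4D against APOE4 and 0.18 for APOE4D against APOE3, where the medians of all genes lay between -0.011 and 0.003. Leaving out APOE3 replicate 1 gave medians of 0.20 for APOE4, 0.16 for APOE2 and 0.26 for APOE4D against APOE3.

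**Figure D3:**
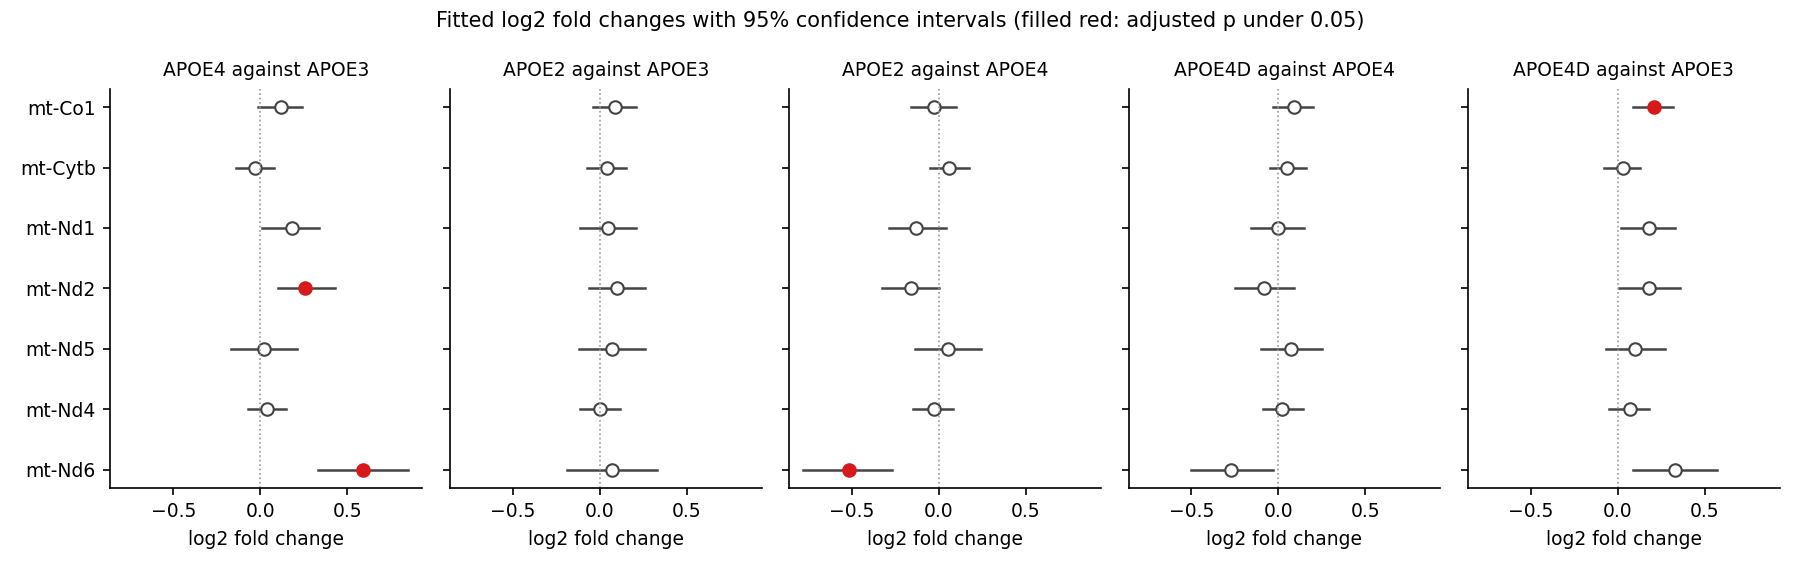
Each panel is 1 comparison, with the fitted log2 fold change of each well-counted mRNA as a point and its 95% confidence interval as a line (red filled points, adjusted p under 0.05). mt-Nd6 stands at 0.59 in APOE4 against APOE3 and at -0.52 in APOE2 against APOE4, and the remaining points lie between -0.27 and 0.33.

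The complex I members are described first. Complex I, NADH dehydrogenase, takes electrons from NADH and pumps protons, and its mitochondrially encoded subunits form much of the membrane arm. mt-Nd6 (mitochondrial bases 13552 to 14070) is the only one of the 10 genes on the minus strand, and its annotated end overlaps that of mt-Nd5 (11742 to 13565) by 14 bases. In human cells the ND6 mRNA is known to lack the poly(A) tail of the other mitochondrial mRNAs. The libraries were made with a stranded mRNA kit, which selects poly(A) RNA. The sources used here do not say whether the counting used strand, and without it reads of mt-Nd6 and reads from the opposite strand cannot be told apart. The overlap is printed because it is the only stretch that 2 of the 10 genes share on opposite strands, and capitals mark its 14 bases, each gene written in its own 5′ to 3′ direction up to its last base:
mt-Nd5: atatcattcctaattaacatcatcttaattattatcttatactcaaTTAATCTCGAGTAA
mt-Nd6: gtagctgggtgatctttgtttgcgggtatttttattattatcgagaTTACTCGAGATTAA

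Among the well-counted members, mt-Nd6 showed the largest differences between groups, also between the groups APOE4D and APOE4 that share a genotype label. Its levels were 74.8, 80, 62.7, 64.1 and 77.2 CPM in APOE2 libraries and 87.6, 82.3, 89.4, 77.2 and 92.6 CPM in APOE4D libraries, replicates 1 to 5. They were 106, 93, 94.4, 112 and 110 CPM in APOE4 libraries, against 89.8, 69, 61.2, 67.7 and 56.1 CPM in APOE3 libraries. Each APOE4 library was above every library of the other groups, and APOE3 replicate 1, at 89.8 CPM, was the highest of its group. APOE4 exceeded APOE3 by 0.59 on the log2 scale (SE 0.12, 95% interval 0.33 to 0.85, adjusted p = 0.0041), a 1.51-fold difference without overlap, where the CPM of 11.7% of all genes did not overlap between these groups. Without APOE3 replicate 1 the log2 fold change was 0.72 (edgeR, adjusted p = 5.74e-05). APOE2 was lower than APOE4 by a log2 fold change of -0.52 (SE 0.12, 95% interval -0.78 to -0.27, adjusted p = 0.021), again without overlap, as for 7.81% of all genes. This call was lost when APOE2 replicate 3 (-0.48, edgeR adjusted p = 0.0643), APOE4 replicate 4 (-0.50, adjusted p = 0.0639) or APOE4 replicate 5 (-0.50, adjusted p = 0.0553) was left out. APOE4D had a log2 fold change of -0.27 against APOE4 (95% interval -0.50 to -0.03, adjusted p = 0.418). Their CPM did not overlap, as for 2.84% of all genes. Against APOE3, APOE4D had a log2 fold change of 0.33 (SE 0.113, adjusted p = 0.0796), or 0.45 without APOE3 replicate 1 (edgeR, adjusted p = 0.00262). APOE2 had a log2 fold change of 0.07 against APOE3 (95% interval -0.19 to 0.33), or 0.19 without replicate 1 (edgeR, adjusted p = 0.192).

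The groups also differed in how the mice were identified and how deeply the libraries were sequenced. IDs beginning with FH belong to 2 APOE2, 3 APOE4D and 2 APOE4 mice and to no APOE3 mouse, and the labels do not say what FH means. With these mice left out, mt-Nd6 had a log2 fold change of 0.52 for APOE4 against APOE3 (edgeR, adjusted p = 0.0755) and of -0.42 for APOE2 against APOE4 (adjusted p = 0.315), with 1403 and 537 genes called among 21149 tested. The 3 remaining APOE4 libraries, at 93 to 106 CPM, still lay above all 5 APOE3 libraries. APOE4 libraries held 33032138 to 46887242 counts and APOE3 libraries 43051666 to 51960932 counts. Over the 20 libraries total counts and mt-Nd6 CPM, both on the log2 scale, had a Pearson r of -0.569 (Spearman rho -0.641), and the deviations from group means one of -0.0754 (rho -0.134), as a description of libraries that share their genotype. Blood markers (the globins and Alas2) moved with the comparison as well, with 5 of 5 called lower in APOE4 mice, beside 21% of all genes called. Their summed level was 72.7 to 120 CPM in APOE4 libraries against 150 to 396 CPM in APOE3 libraries, with no marker at 0. When APOE3 replicate 1 was left out, 4 of 5 blood markers were called lower, beside 27.1% of all genes. Over the 20 libraries, on the log2 scale, summed blood markers had a Pearson r of -0.295 with mt-Nd6 CPM. Summed choroid plexus markers had one of -0.603. Neurons, astrocytes and oligodendrocytes had r between -0.253 and 0.195. The part of depth, of blood and of choroid plexus in the mt-Nd6 difference was not tested.

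Relative to the rest of the mitochondrial mRNAs the difference in mt-Nd6 was of like size. mt-Nd6 counts amounted to 0.122% to 0.148% of the summed counts of the other 9 members in APOE2 libraries, 0.135% to 0.164% in APOE4D libraries, 0.172% to 0.214% in APOE4 libraries and 0.114% to 0.149% in APOE3 libraries. APOE4 did not overlap with any group, while APOE4D overlapped with both APOE2 and APOE3. Set against mt-Nd5, its neighbour on the opposite strand, mt-Nd6 stood at 2.13% ± 0.187 in APOE4 libraries and 1.43% ± 0.12 in APOE3 libraries (SD, n = 5 each). When each library was scaled to its summed member counts, an alternative chosen after seeing the data, mt-Nd6 differed by 0.51 for APOE4 against APOE3 (edgeR, adjusted p = 0.000107) and by -0.50 for APOE2 against APOE4 (adjusted p = 7.84e-05). Under this scaling no other member was called in either comparison. The sum contains the members themselves, with 41.3% of it from mt-Co1 on average, which shrinks differences in the largest of them.

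**Figure D4:**
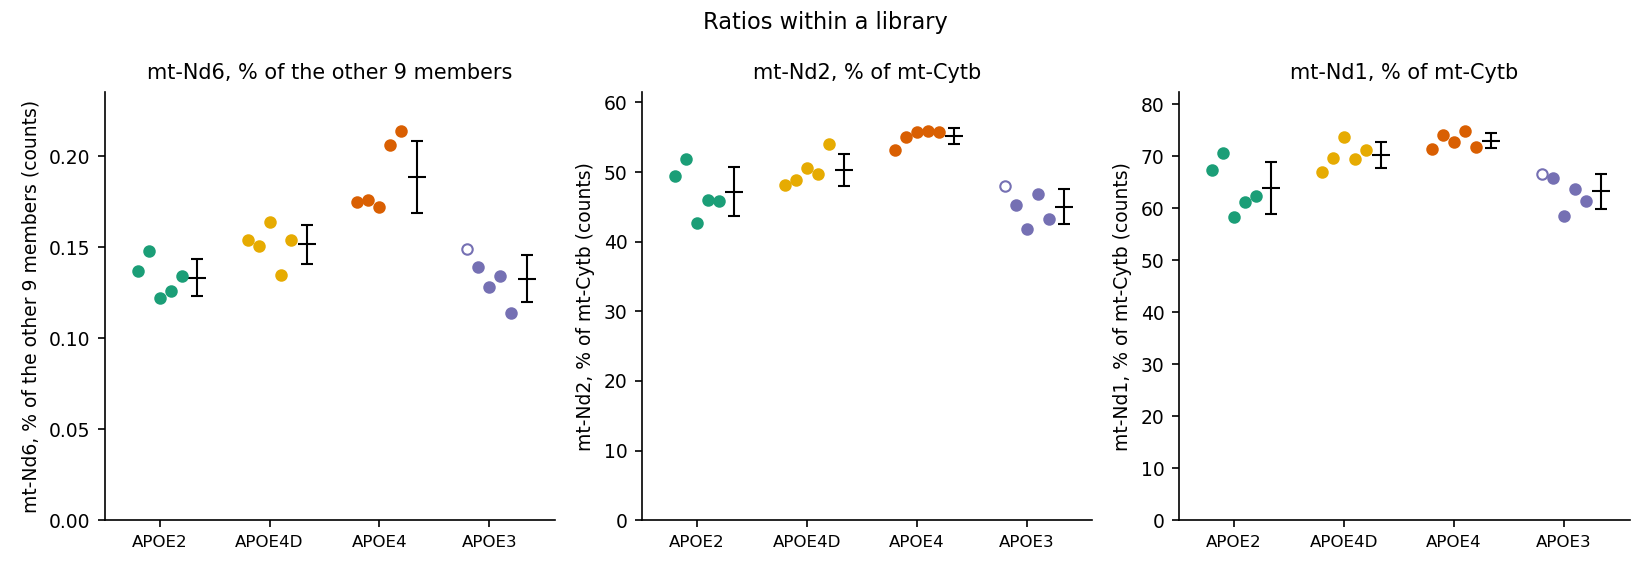
Points are single libraries, with the counts of 1 mRNA as a percent of others of the same library on the y axis, and black marks show the mean and SD of each group of 5 (open point, APOE3 replicate 1). APOE4 libraries lie at 0.172% to 0.214% for mt-Nd6 and at 53.2% to 55.9% for mt-Nd2, above all APOE2 and APOE3 libraries in both, and above all APOE4D libraries for mt-Nd6. For mt-Nd1 they lie at 71.5% to 74.9%, against 58.5% to 66.6% in APOE3 libraries.

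mt-Nd2 (bases 3914 to 4951), a proton-pumping complex I subunit, was the other member called between APOE4 and APOE3 mice. It had 5999, 5280, 5654, 5468 and 5300 CPM in APOE4 libraries, against 5611, 4365, 4204, 4711 and 4308 CPM in APOE3 libraries. The only APOE3 library within the APOE4 range was replicate 1, at 5611 CPM. The log2 fold change was 0.26 (SE 0.0774, 95% interval 0.10 to 0.43, adjusted p = 0.0263), or 0.36 without APOE3 replicate 1 (edgeR, adjusted p = 5e-05). This call was lost when any of APOE3 replicates 2 to 5 or APOE4 replicate 1 was left out (adjusted p between 0.0551 and 0.0934), without the filter on low counts (adjusted p = 0.0689), without the FH mice (0.29, adjusted p = 0.0886) and when scaled to the members' sum (0.17, adjusted p = 0.112). APOE2 libraries had 5238, 5309, 4450, 4662 and 5139 CPM, and APOE4D libraries 4978, 5007, 4951, 5291 and 5963 CPM, with no call against any group. Both were called against APOE3 once its replicate 1 was left out, at 0.19 for APOE2 (edgeR, adjusted p = 0.022) and 0.27 for APOE4D (adjusted p = 0.00878). As a percent of mt-Cytb counts in the same library, mt-Nd2 was 55.2% ± 1.13 in APOE4 and 45% ± 2.54 in APOE3 libraries, and the 53.2% to 55.9% of APOE4 lay above the 41.8% to 48% of APOE3.

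mt-Nd1 (bases 2751 to 3707), which lies near the ubiquinone site of complex I, tracked mt-Nd2 most closely of all pairs, with a Pearson r of 0.954 over the 20 libraries and 0.961 for deviations from group means (a description, since libraries of a group share their genotype). It had 8052, 7113, 7369, 7334 and 6817 CPM in APOE4 libraries, against 7792, 6352, 5884, 6411 and 6142 CPM in APOE3 libraries. Apart from APOE3 replicate 1, the groups did not overlap. The log2 fold change of 0.18 (95% interval 0.01 to 0.34, edgeR adjusted p = 0.116) missed the threshold, and without replicate 1 it was 0.27 (adjusted p = 0.00122). In APOE4D libraries mt-Nd1 had 6926 to 7871 CPM and a log2 fold change of 0.18 against APOE3 (edgeR, adjusted p = 0.148), and in APOE2 libraries 6078 to 7239 CPM with one of 0.05. These were 0.26 (adjusted p = 0.00443) and 0.13 (adjusted p = 0.122) without APOE3 replicate 1.

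mt-Nd4 (bases 10167 to 11544) and mt-Nd5 are both proton-pumping subunits that resemble ion antiporters. They had the narrowest ranges of log2 fold change of the complex I members over the comparisons. mt-Nd4 ranged from 4095 to 4736 CPM in APOE2, 4292 to 4967 CPM in APOE4D, 4142 to 4928 CPM in APOE4 and 4152 to 4868 CPM in APOE3 libraries. Its log2 fold change lay between -0.03 and 0.07 in all 5 comparisons. mt-Nd5 ranged from 4595 to 5689 CPM in APOE2, 4719 to 5321 CPM in APOE4D, 4562 to 5356 CPM in APOE4 and 4138 to 5854 CPM in APOE3 libraries, with log2 fold changes between 0.02 and 0.10. Neither was called in any comparison. For APOE4 against APOE3 the 95% intervals were -0.07 to 0.15 for mt-Nd4 and -0.17 to 0.21 for mt-Nd5. With APOE3 replicate 1 left out, mt-Nd4 was at 0.10 for APOE4, 0.06 for APOE2 and 0.12 for APOE4D against APOE3, none called. mt-Nd5 was then at 0.12 for APOE4 and 0.16 for APOE2, neither called, and at 0.19 for APOE4D (edgeR, adjusted p = 0.0499). The 5 complex I members are read from the same long transcripts, apart from mt-Nd6 on the other strand, and their differences between APOE4 and APOE3 mice ran from 0.02 for mt-Nd5 to 0.59 for mt-Nd6.

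**Figure D5:**
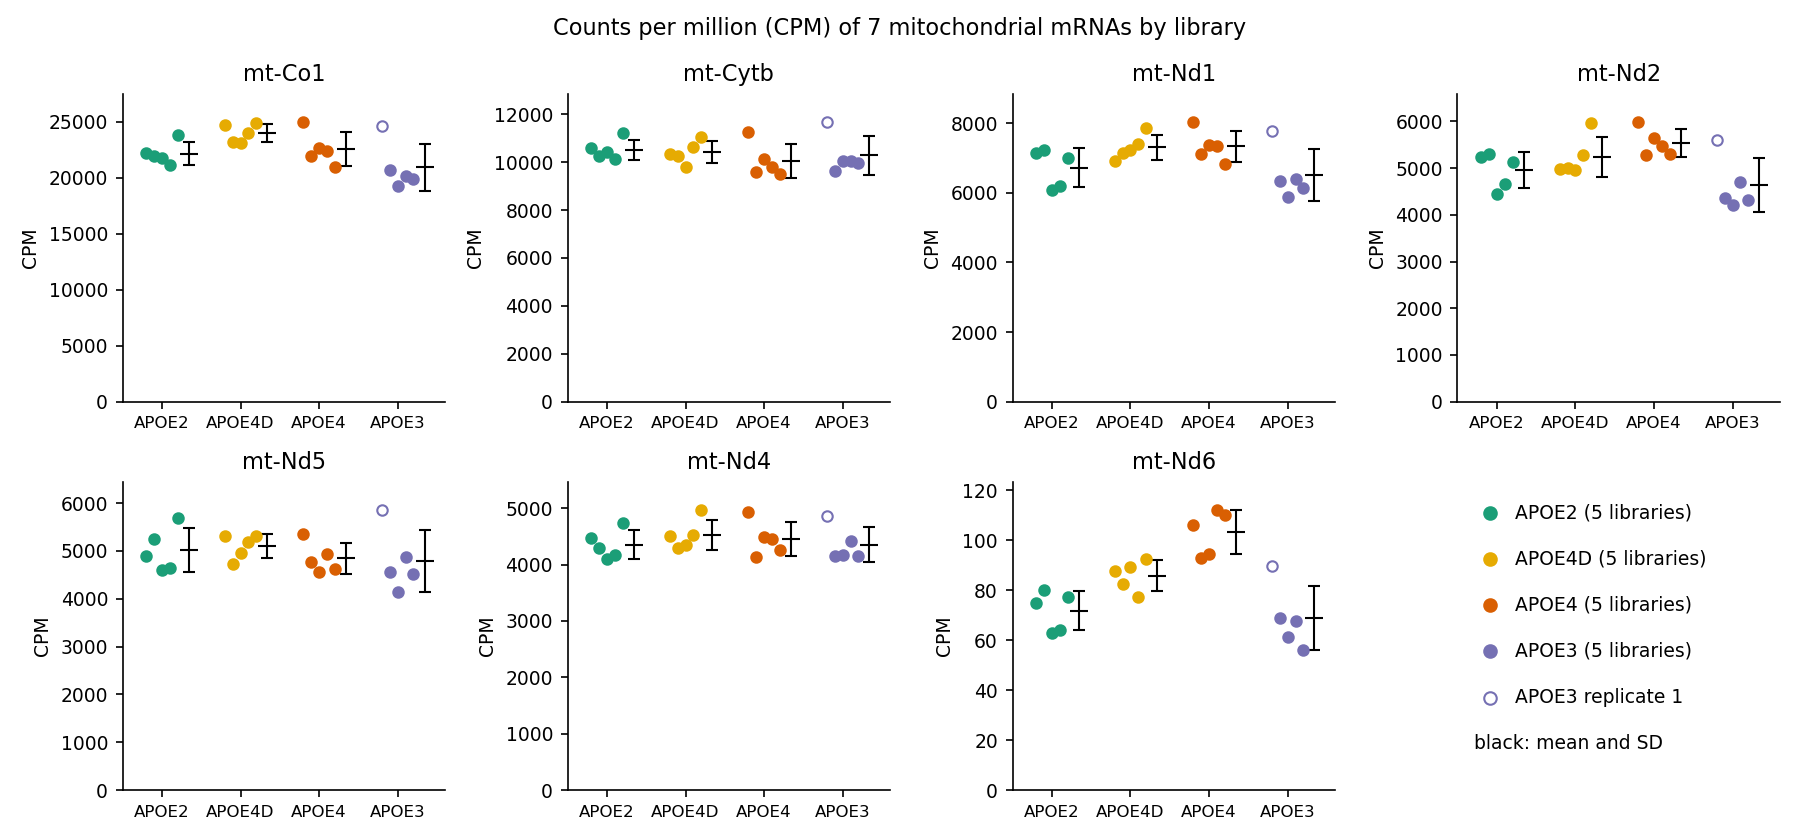
Each panel is 1 well-counted mRNA, with CPM on the y axis starting at 0, 1 point per library and black marks for the mean and SD of each group of 5. APOE3 replicate 1, the open point, is the highest APOE3 library in every panel, and the APOE4 libraries at 93 to 112 CPM of mt-Nd6 lie above all others.

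mt-Cytb (bases 14145 to 15288) encodes cytochrome b, the mitochondrially encoded subunit of complex III, which passes electrons from ubiquinol to cytochrome c. It had 11269, 9591, 10128, 9787 and 9495 CPM in APOE4 libraries, against 11700, 9644, 10053, 10053 and 9979 CPM in APOE3 libraries. The groups overlapped throughout. The log2 fold change was -0.03 (95% interval -0.14 to 0.08). APOE2 libraries ranged from 10126 to 11212 CPM and APOE4D libraries from 9786 to 11048 CPM, with log2 fold changes between 0.03 and 0.06 in the other 4 comparisons. The fold changes without APOE3 replicate 1 were 0.04 for APOE4, 0.10 for APOE2 and 0.08 for APOE4D against APOE3, none called. mt-Cytb was the member least like mt-Nd6 over the 20 libraries, with a Pearson r of 0.159, or 0.531 for deviations from group means. Over the 19 libraries other than APOE3 replicate 1 these were 0.105 and 0.178.

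Complex IV, cytochrome c oxidase, hands electrons to oxygen, and mt-Co1, mt-Co2 and mt-Co3 encode its catalytic core. mt-Co1 (bases 5328 to 6872) carries the heme and copper centre at which oxygen is reduced. APOE4D libraries had 24716, 23197, 23127, 23971 and 24856 CPM, against 24591, 20648, 19295, 20166 and 19917 CPM in APOE3 libraries. Only replicate 1 of APOE3 reached the APOE4D range. The log2 fold change was 0.21 (SE 0.0567, 95% interval 0.09 to 0.32, edgeR adjusted p = 0.027), or 0.28 without that library (adjusted p = 3.19e-05). The call was lost when any of 7 other single libraries was left out (adjusted p between 0.0513 and 0.108) and without the FH mice (0.22, adjusted p = 0.154). Scaled to the members' sum, mt-Co1 was at 0.06 (edgeR, adjusted p = 0.497). As mt-Co1 itself held 41.3% of that sum on average, this scaling pulls its difference toward 0 and cannot judge the call. APOE4 libraries had 25016, 21959, 22669, 22350 and 20932 CPM, with a log2 fold change of 0.12 against APOE3 (adjusted p = 0.193). APOE2 libraries had 22172, 21915, 21767, 21147 and 23796 CPM, with one of 0.09 against APOE3 (adjusted p = 0.469). Without APOE3 replicate 1 these became 0.20 (adjusted p = 0.000991) and 0.16 (adjusted p = 0.0132).

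mt-Co2 (bases 7013 to 7696), whose product receives electrons from cytochrome c, had 5 to 27 reads in APOE2, 3 to 13 in APOE4D, 8 to 9 in APOE4 and 10 to 31 in APOE3 libraries. Its nuclear copy Gm28661 had 22 to 49 reads in APOE2, 31 to 45 in APOE4D, 34 to 69 in APOE4 and 26 to 46 in APOE3 libraries. The log2 fold change of mt-Co2 was -0.91 (95% interval -1.72 to -0.09, edgeR adjusted p = 0.104) for APOE4 against APOE3, while that of Gm28661 was 0.77 (SE 0.219, adjusted p = 0.014). They were -1.04 (adjusted p = 0.0522) and 0.83 (adjusted p = 0.00974) without APOE3 replicate 1. mt-Co3 (bases 8607 to 9390), the third core subunit, had 6 to 18 reads in APOE2, 5 to 13 in APOE4D, 3 to 12 in APOE4 and 8 to 12 in APOE3 libraries, with a 95% interval from -0.77 to 0.76 for APOE4 against APOE3. mt-Atp6 (bases 7927 to 8607) encodes the subunit of ATP synthase, complex V, that forms its proton channel with the c ring. It had 4 to 25 reads in APOE2, 4 to 9 in APOE4D, 4 to 11 in APOE4 and 4 to 35 in APOE3 libraries, with a 95% interval from -1.78 to 1.05. The same comparison without APOE3 replicate 1 gave log2 fold changes of 0.06 for mt-Co3 and 0.64 for mt-Atp6, neither called. Differences of the size seen in mt-Nd2 were not detectable at these read counts.

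With APOE3 replicate 1 left out, more members were called in the comparisons with APOE3, as were more genes overall. APOE4 against APOE3 then had 4 members called (mt-Nd6, mt-Nd2, mt-Nd1 and mt-Co1, all higher), with 5740 of 21215 genes. APOE2 against APOE3 had 2 (mt-Co1 and mt-Nd2, both higher), with 2533 genes. APOE4D against APOE3 had 6 (mt-Co1, mt-Nd1, mt-Nd2, mt-Nd5 and mt-Nd6 higher, and mt-Co2, at 3 to 31 reads, lower), with 3338 of 21199 genes. APOE2 against APOE4, which does not use that library directly but shares the fit, had 2 (mt-Nd6 and mt-Nd2, both lower), with 1584 genes.

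Other mitochondrial transcripts were read beside the members. Of 27 such rows 13 passed the filter on low counts, and 5 were higher and 0 lower in APOE4 against APOE3 mice, with a median log2 fold change of 0.39 over the 13, where 21% of all genes were called. All 5 were tRNAs, namely mt-Ti (1.86, SE 0.425, edgeR adjusted p = 0.00774), mt-Tp (0.41, SE 0.0999, adjusted p = 0.00529), mt-Tm (0.39), mt-Tw (0.39) and mt-Tl1 (0.37), the tRNAs for isoleucine, proline, methionine, tryptophan and one of those for leucine. mt-Tl1 lies directly before mt-Nd1, mt-Ti after it, mt-Tm directly before mt-Nd2 and mt-Tw directly after it, while mt-Tp lies beyond mt-Cytb on the minus strand. mt-Ti had 64 to 139 reads in APOE4 libraries, against 10 to 47 in APOE3 libraries. mt-Tw has no unique window, as mt-Co2 has none, its edgeR adjusted p was 0.0476, and it was called in 12 of 29 alternatives, 4 of them among the 15 that left out a single library. In APOE2 against APOE4 mice 0 of 13 were higher and 3 lower (mt-Tl1 -0.65, mt-Tm -0.61 and mt-Tp -0.40), where 5.89% of all genes were called. In APOE4D against APOE3 mice 1 of 13 was higher, mt-Tp at 0.38, a share near the 8.41% of all genes. Leaving out APOE3 replicate 1, 6 of 14 were higher in APOE4 than in APOE3 mice, the 5 above and mt-Tq (0.57), where 27.1% of all genes were called. Intact tRNAs are shorter than most library inserts and carry no poly(A) tail, so these reads need not come from mature tRNAs. The rRNAs were not called between APOE4 and APOE3 mice, with log2 fold changes of -0.06 for mt-Rnr1 and -0.11 for mt-Rnr2, and their counts amounted to 19.5% ± 1.39 of the member counts in APOE4 and 22.1% ± 1.21 in APOE3 libraries (SD, n = 5 each). The rRNAs were at 0.03 for mt-Rnr1 and -0.02 for mt-Rnr2 without APOE3 replicate 1. Of 7 nuclear copies, Gm28439 (0.92, adjusted p = 0.0397) and Gm28661 were higher in APOE4 and none was lower, 2 of 7 against 21% of all genes. Without that library Gm29216 was also called, as lower (-4.49, edgeR adjusted p = 0.0443), with 3056 of the APOE3 reads of Gm29216 in replicate 3.

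Nuclear genes for other subunits of the same complexes were called lower more often than higher in APOE4 against APOE3 mice, 46 of 75 lower and 1 higher. Of 36 nuclear complex I subunits 1 was higher and 22 were lower (median log2 fold change -0.16), with Ndufb9 at -0.35 and Ndufb8 at -0.33. Complex IV had 10 of 11 lower and 0 higher (median -0.24), led by Cox6a1 and Cox8a, both at -0.45. Complex III had 5 of 9 lower (median -0.15, Uqcr11 at -0.42), complex V 7 of 15 (median -0.15, Atp5j2 at -0.35) and complex II, which has no mitochondrially encoded subunit, 2 of 4 (median -0.12, Sdhb at -0.20), each with 0 higher. The median of all genes was -0.011, and 21% were called. Between APOE2 and APOE4 mice 17 of the 75 subunits were called, all higher, against 5.89% of all genes, with Atp5l at 0.38 and Uqcr11 at 0.31. In APOE4D against APOE3 mice 40 of 75 were lower and 3 higher, against 8.41% of all genes, with 20 of 36 complex I and 9 of 11 complex IV subunits lower. In APOE2 against APOE3 mice 8 of 75 were lower and 1 higher, against 4.89% of all genes, and the 3 of 36 complex I subunits called are near that share. Without APOE3 replicate 1, 49 of 75 were lower and 2 higher in APOE4 (27.1% of all genes called), 50 lower and 2 higher in APOE4D (15.7%), and 24 lower and 2 higher in APOE2 (11.9%), each against APOE3.

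Factors that maintain mtDNA and that transcribe and process mitochondrial RNA were read in the same comparisons. Of 23 genes of mtDNA maintenance and transcription, 1 was higher and 3 were lower in APOE4 against APOE3 mice, among them Rrm2b (0.27), a ribonucleotide reductase subunit that supplies nucleotides for mtDNA, Top1mt (-0.22), the mitochondrial topoisomerase, and Tk2 (-0.19), the mitochondrial thymidine kinase. Of 24 genes of mitochondrial RNA processing and stability, Fastkd2 (0.18) was higher and Fastk (-0.18) lower. The 4 of 23 and 2 of 24 called stand beside 21% of all genes. These counts were 5 of 23 and 5 of 24 without APOE3 replicate 1, beside 27.1%. Fastk, in cultured mammalian cells, is known to be required for ND6 mRNA. Between APOE2 and APOE4 mice Tk2 (0.17) was higher and Mto1 (-0.20), a tRNA-modifying enzyme, lower. Between APOE4D and APOE4 mice none of either list was called.

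The composition of the libraries was compared in the same way. Of 8 long noncoding RNAs retained in the nucleus, Malat1 (0.49) and Kcnq1ot1 (0.23) were higher and Mirg (-0.24) lower in APOE4 against APOE3 mice, and without APOE3 replicate 1 Rian (0.14) was higher as well. RNAs with no poly(A) tail, which bear on how strictly poly(A) RNA was selected, summed to 1.9 to 12.3 CPM in APOE4 and 2.78 to 14.7 CPM in APOE3 libraries, and of 3 tested 0 were called. Cell type markers were called for 2 of 7 neuronal genes (1 higher, 1 lower), 1 of 6 astrocyte, 0 of 6 oligodendrocyte, 1 of 6 microglial, 1 of 4 endothelial, 0 of 6 choroid plexus and 0 of 4 ependymal genes. The astrocyte, microglial and endothelial genes called were lower. All these counts, and those of the long noncoding RNAs, stand beside 21% of all genes called in this comparison. Without APOE3 replicate 1, 3 of 7 neuronal (2 higher, 1 lower) and 3 of 6 microglial genes (1 higher, 2 lower) were called, beside 27.1% of all genes. The counts of the other lists named here were as above. Their part in the results was not tested.

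The genes whose levels were most like the summed members over the 20 libraries were ranked by Pearson r among 10615 nuclear genes of at least 10 CPM. The highest were Hmgcll1 (r 0.862, Spearman rho 0.829), Prkcb (0.858, rho 0.811), Asph, Rnf139 and Rnf103. The lowest were Plxnb2 (r -0.804, rho -0.704), Cars2, Madd, Mrpl24 and Il34. mt-Nd6, ranked on its own after its values were seen, was most like Ube2d3 (r 0.966, rho 0.979) and Ube2e1 (0.945, rho 0.935), and least like Porcn (-0.909, rho -0.889). Over the 19 libraries without APOE3 replicate 1, r was 0.87 for Hmgcll1, 0.858 for Prkcb and -0.794 for Plxnb2 with the summed members, and 0.966 for Ube2d3 and -0.916 for Porcn with mt-Nd6. These are descriptions across libraries that share genotype and scaling and differ in depth.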

How the data were processed

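Reads were single and 50 bases long, from libraries made with a stranded mRNA kit. The authors deposited whole-number counts per gene symbol, and per the labels the processing used STAR 2.7.0, featureCounts and DESeq2 on GRCm38 (mm10), while the methods of the paper name another build and counter. These sources do not give the handling of strand or of reads with several matches. The deposited tables of normalized counts and of the authors' comparisons (log2 fold changes, p-values) were not used.

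Counts were scaled by TMM and tested with edgeR 4.0.16 (glmQLFit with robust estimates, glmQLFTest) in R 4.3.3, on genes over 0.1 CPM in more than 40% of libraries, with Benjamini-Hochberg adjustment over all genes tested and a threshold of 0.05. APOE2, APOE3 and APOE4 were fitted together, and APOE4D in a fit of all 20 libraries. The study's covariates (base percentages of the reads) could not be had from counts. Confidence intervals are 95%. The fit was tested on simulated data. Alternatives used DESeq2 1.42.0, limma 3.58.1 and sva 3.50.0. Each replicate is 1 mouse and 1 library, so the tests set group differences against the spread between such libraries. That spread also holds APOE3 replicate 1 with its few Xist reads and, within APOE2, APOE4 and APOE4D, the mixed ID series. As no APOE3 mouse has an FH ID, the series is partly confounded with the comparisons against APOE3.

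The members and lists were chosen with earlier results of these data known. Named genes are all members, and from each list at most 3 of largest absolute log2 fold change among those called. Unique windows were searched on both strands of GRCm39. The 37 mitochondrial genes have the same start and end in RefSeq GRCm38.p6 and in the GRCm39 annotation, so their coordinates hold for both builds, while coordinates on chromosome 1 are those of GRCm39. Sequences were read from GRCm39.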

Additional observations from a re-analysis of the deposited data

Results flagged for a closer look

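In 8 of 76 groups of 5 libraries examined 1 library lay far from the rest by Dixon's criterion, where chance would single out about 1 in 20. The groups reuse the same 20 libraries for rows that vary together, so the flags are not independent and their number cannot be read as an excess. Of these, 5 were APOE3 replicate 1, the library with few Xist reads, at 24591 CPM of mt-Co1 (next 20648), 11700 CPM of mt-Cytb (next 10053), 7792 CPM of mt-Nd1 (next 6411), 0.813 CPM of mt-Atp6 (next 0.25) and 6.05% of counts in the 10 members (next 5.07%). In APOE2 mice, replicate 2 had 0.579 CPM of mt-Atp6 (next 0.14). APOE3 replicate 3 had 58.8 CPM of Gm29216, the copy of the end of mt-Co1, where the next APOE3 library had 0.581 CPM, and 19.9 CPM of Gm28437, the copy of mt-Co3, where the next had 2.07 CPM. These were 3056 and 1035 reads. The same library had the lowest mt-Co1 level of all 20, 19295 CPM.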

How the results depend on the processing

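Of 1520 recomputed member values, 1478 stayed called or stayed uncalled, 23 lost a call, 19 gained one and 0 called values changed direction. Uncalled values that changed sign count among those that stayed. Over all mitochondrial rows tested, 140 values below the threshold changed sign. The call of mt-Nd6 between APOE4 and APOE3 held in 28 of 29 alternatives (log2 fold change 0.47 to 0.72). Of 10 members, those called for APOE4 against APOE3 (2 as reported) numbered 1 without the filter on low counts, 5 with APOE4 and APOE4D joined, 0 without FH mice, 3 with the ID series as covariate or 1 surrogate variable, and 1 to 4 when single libraries were left out. mt-Co2, at 3 to 31 reads per library, was among those called, as lower, in the joined fit and with either covariate. Those for APOE2 against APOE4 (1 as reported) numbered 0 without FH mice and 0 to 2 without single libraries, and those for APOE2 against APOE3 0 to 2 without single libraries. Those for APOE4D against APOE3 (1 as reported) numbered 2 with DESeq2 or limma-voom, 0 without FH mice, 0 with 1 surrogate variable and 0 to 6 without single libraries. Some alternatives were chosen after seeing the data: scaling to the members' sum called 1 for APOE4 against APOE3, and removing a trend over GC content and length called 2 for APOE4D against APOE3, with mt-Nd6 between APOE4 and APOE3 at 0.52 (edgeR adjusted p = 0.000941). The cause of these changes was not tested. The share of the members became 5.75% in APOE2, 6.07% in APOE4D, 5.88% in APOE4 and 5.51% in APOE3 libraries over counts that are not mitochondrial. With all 37 mitochondrial genes it was 6.49% in APOE2, 6.69% in APOE4D, 6.57% in APOE4 and 6.3% in APOE3 libraries. No paired analysis was possible because the replicate numbers are in accession order and pair no mice across groups. mt-Co2, mt-Co3 and mt-Atp6, which have no unique window, are limited by their 3 to 35 reads per library.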
